A study of Homo sapiens with 2 samples.

Results

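The miRNAs described here come from hairpins at 4 imprinted loci of the human genome, namely IGF2 (miR-483), H19 (miR-675), the GNAS complex (miR-296 and miR-298) and MEST (miR-335). They were chosen by name from the scanner's own annotation, which gave 9 of the 2565 miRNA probes of the array. RNA came from exosomes, small vesicles shed into the culture medium, of HuH-7, an established hepatocellular carcinoma cell line. There were 2 groups of 1 array each, HuH-7-M exosome and HuH-7-P exosome. The labels do not spell out M and P, and they give no treatment or genotype that sets the cultures apart. By its title the series concerns hepatocellular carcinoma lines that metastasize within the liver, and the comparison asks how the vesicles of the cultures differ. Both cultures had been grown with fetal bovine serum, the medium was then replaced with advanced DMEM, and vesicles were pelleted from the filtered supernatant by ultracentrifugation. With 1 array per culture no difference has a replicate, no test was possible, and the number of arrays limits the precision of every value. Fewer vesicles and less of a miRNA per vesicle cannot be told apart.

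An imprinted gene is expressed mainly from the copy inherited from 1 parent. IGF2, a fetal growth factor gene expressed from the paternal copy, and H19, a long non-coding RNA expressed from the maternal copy, are neighbours that share control elements. Both are active in fetal liver. H19 is largely silent in adult liver and can return in liver cancer, while adult human liver still makes IGF2 from a liver-specific promoter. miR-483 lies within IGF2 and miR-675 is cut from the H19 RNA. MEST, expressed from the paternal copy, carries miR-335, which is best known as a suppressor of breast cancer metastasis. miR-296 and miR-298 are neighbours beside the GNAS complex, whose main product is a G protein subunit, and in mouse they are linked to an antisense transcript of that complex.

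In RefSeq's gene table for GRCh38.p14, MIR483 lies inside the span of IGF2, MIR675 inside that of H19 and MIR335 inside that of MEST. MIR296 and MIR298 lie outside the spans of both GNAS and its antisense gene GNAS-AS1. RefSeq mature sequences were matched by name for 7 of the 9 members, the exceptions being miR-483-5p and miR-483-3p. They are printed 5′ to 3′ because the seed, bases 2 to 8 in capitals, is the part that pairs with target RNAs. The H19 pair lies on the minus strand at chr11:1996800-1996822 for miR-675-5p and chr11:1996768-1996787 for miR-675-3p.
miR-675-5p: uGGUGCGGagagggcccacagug
miR-675-3p: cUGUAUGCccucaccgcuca
The GNAS members lie on the minus strand at chr20:58817661-58817681 for miR-296-5p, chr20:58817626-58817647 for miR-296-3p and chr20:58818280-58818303 for miR-298.
miR-296-5p: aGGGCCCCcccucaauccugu
miR-296-3p: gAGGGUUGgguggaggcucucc
miR-298: aGCAGAAGcagggagguucuccca
The MEST pair lies on the plus strand at chr7:130496126-130496148 for miR-335-5p and chr7:130496162-130496183 for miR-335-3p.
miR-335-5p: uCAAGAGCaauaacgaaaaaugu
miR-335-3p: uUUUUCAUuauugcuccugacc
The 7 seeds all differ from each other. G and C make up 69.6% of miR-675-5p, 68.2% of miR-296-3p, 66.7% of miR-296-5p, 60% of miR-675-3p and 58.3% of miR-298, but 36.4% of miR-335-3p and 30.4% of miR-335-5p.

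The hairpins of MIR675 and MIR296 are shown because both arms of each were measured. The arms are in capitals, with GRCh38.p14 positions chr11:1996759-1996831 and chr20:58817615-58817694, both on the minus strand.
MIR675: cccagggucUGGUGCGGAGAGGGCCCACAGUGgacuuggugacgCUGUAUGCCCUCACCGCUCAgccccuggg
MIR296: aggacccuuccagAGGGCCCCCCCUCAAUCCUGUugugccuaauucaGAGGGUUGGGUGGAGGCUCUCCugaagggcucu

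Signals below are the spot's median Cy5 intensity minus the mean of the 320 BLANK spots of the same array. A miRNA counted as measured when its intensity passed the BLANK limit (trimmed mean plus 2 SD) on both arrays, a signal of 2.42 on HuH-7-M against 2.60 on HuH-7-P. A second control, 85 spots labelled No Probe, was brighter than BLANK, and its limit lay at signals of 31.2 on HuH-7-M against 27.2 on HuH-7-P. Even the dimmest No Probe spot passed the BLANK limit, with an intensity of 64.6 on HuH-7-M (limit 61.2) and 68.7 on HuH-7-P (limit 62.3). A miRNA counted as measured is therefore not always brighter than the No Probe spots. Across all miRNA probes 1593 (62.1%) passed the BLANK limit on both arrays and 790 (30.8%) the No Probe limit. Of 6 hepatocyte miRNAs 4 were measured, and miR-122-5p, the most typical of them, had a signal of 67.7 on HuH-7-M against 40.0 on HuH-7-P. Signals of miR-885-5p were 36.9 on HuH-7-M against 29.8 on HuH-7-P. The other way went miR-192-5p (24.0 on HuH-7-M against 27.8 on HuH-7-P) and miR-194-5p (10.8 against 13.8). The median log2 difference of the measured hepatocyte miRNAs after normalization was 0.05. Measured also were 4 of 5 blood miRNAs, 1 of 2 neural miRNAs and all 3 of the muscle miRNAs matched by name, from a list of 4, and neither endothelial miRNA was. The No Probe limit was passed on both arrays by 2 hepatocyte miRNAs and 1 neural miRNA, but by 0 of the blood and 0 of the muscle miRNAs. The muscle list differed most in summed signal, at 32.6 on HuH-7-M against 134 on HuH-7-P, of which miR-206 gave 17.3 on HuH-7-M against 109 on HuH-7-P. The part of this in the members' values was not tested.

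Of the 9 members, 7 passed the BLANK limit on both arrays, both arms of miR-483, miR-675 and miR-296 and miR-298. The 5 that passed the No Probe limit on both were miR-483-5p, miR-483-3p, miR-675-5p, miR-296-5p and miR-296-3p. miR-335-3p passed the BLANK limit on the HuH-7-M array alone and miR-335-5p on neither array. Under most settings exosomes of HuH-7-M read higher for both arms of miR-483 and miR-675 and for miR-298, and lower for both arms of miR-296. On the Spike Control scale only miR-483-3p lay above 0, but there the median of all measured miRNAs was -0.58. Both arms of miR-483 and miR-675 and miR-298 lay above that median, and both arms of miR-296 below it. With the scanner's background column miR-483 and miR-675-3p were lower and miR-296 higher. Differences below subtract the HuH-7-P value from the HuH-7-M value on the log2 scale after normexp background correction with an offset of 50 and quantile normalization, steps that pull the differences of dim probes toward 0. On that scale none of the 7 measured members reached 2-fold, against 2.2% of all 1593 measured miRNAs (0.439% higher, 1.76% lower). Their median difference was 0.19, beside 0.01 over all measured miRNAs, and 5 of the 7 lay above 0, beside 858 of the 1593 (717 lay below 0). With the BLANK mean subtracted and no further scaling, 1 of the 7, miR-483-3p, read 2-fold higher or more, where 3.33% of all measured miRNAs were, and 0 of the 7 were at least 2-fold lower, where 4.46% were.

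**Figure D1:**
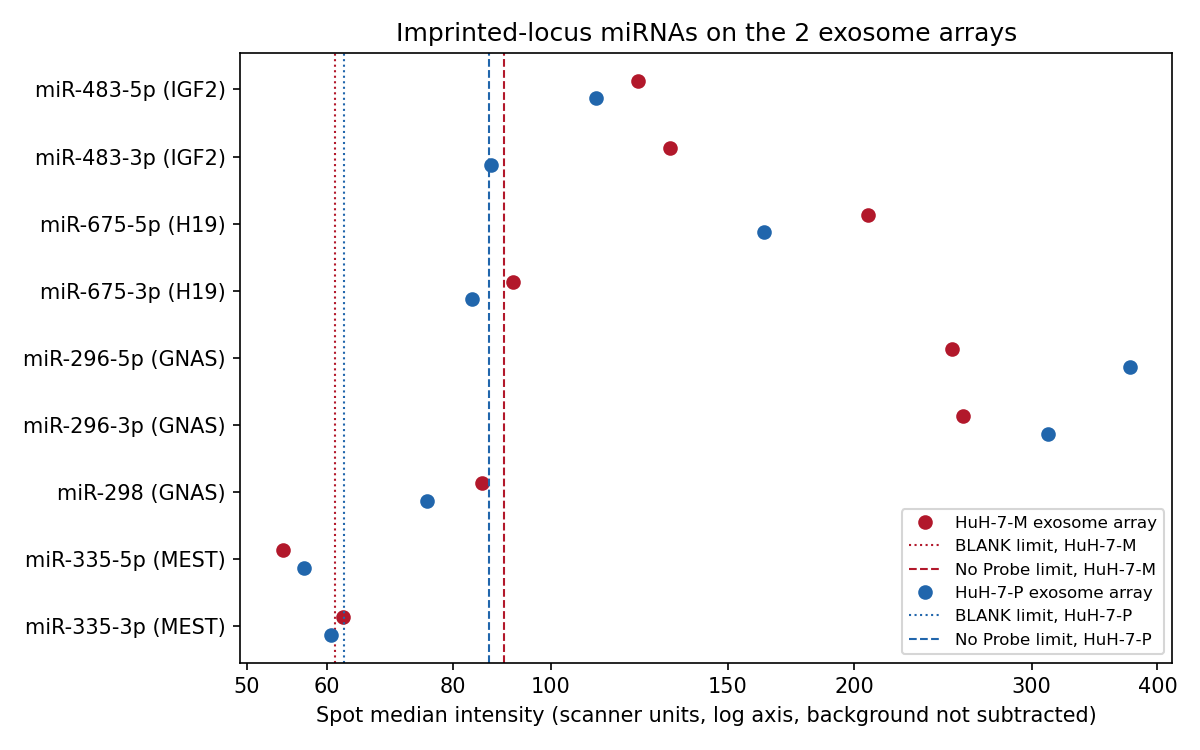
Spot median intensity (scanner units, log axis, background not subtracted) of the 9 members on the HuH-7-M and HuH-7-P exosome arrays, 1 point per array, with the BLANK limits (dotted) and No Probe limits (dashed) of each array. miR-296-5p and miR-296-3p lie far to the right of both limits, with HuH-7-M below HuH-7-P, while the points of miR-335-5p and miR-335-3p lie around the BLANK limits.

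hsa-miR-483-3p, the IGF2 arm described in human cancers as an inhibitor of cell death, had a signal of 72.7 on HuH-7-M against 27.7 on HuH-7-P. The HuH-7-M signal was 2.63 times that of HuH-7-P, the widest ratio among the 7 measured members. The normalized difference was 0.67 (1.59-fold higher in HuH-7-M), and 2.45% of the measured miRNAs had a difference as high or higher. The HuH-7-P spot sat close to the upper end of the No Probe controls, above 80 of the 85, whereas the HuH-7-M spot lay above all 85. How far apart the arrays stand therefore depends on the background taken off, with log2 differences of 1.39 after subtracting the BLANK mean, 1.04 with an offset of 16, and 2.74 after subtracting the No Probe mean. It was 0.08 after scaling to the Spike Control spots, and -0.09 when the scanner's background column was used. With that column the differences of all measured miRNAs had quartiles of only -0.031 and 0.020, against -0.066 and 0.095 on the normalized scale. The values of miR-483-3p (-0.09), miR-483-5p (-0.17), miR-675-5p (0.10) and miR-296-5p (0.15) under this setting lay outside these narrower quartiles. Those of miR-675-3p (-0.02), miR-296-3p (0.015) and miR-298 (0.00074) lay within them. The 5 spots next to that of miR-483-3p in its block had median signals of 3.68 on HuH-7-M against 6.83 on HuH-7-P. The scanner's background column at the miR-483-3p spot read 140.0 on HuH-7-M against 80.9 on HuH-7-P, beside spot intensities of 131 on HuH-7-M against 87.4 on HuH-7-P. The part of this in the difference was not tested.

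hsa-miR-483-5p, the other arm, known as a circulating marker of adrenocortical carcinoma, had a signal of 63.4 on HuH-7-M against 51.1 on HuH-7-P. Its normalized difference was 0.18, and 15.5% of measured miRNAs had as high a value. The arms of miR-483 stood 0.50 apart in their differences on this scale, where the median gap over the 397 hairpins with both arms measured was 0.15 (quartiles 0.07 and 0.31). With the BLANK mean subtracted the gap was 1.08, beside a median of 0.36 (quartiles 0.17 and 0.66). The larger HuH-7-M signal was thus mainly seen at the 3p arm. miR-483-5p turned to -0.42 on the Spike Control scale, where the median of all measured miRNAs was -0.58, and to -0.17 with the background column.

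hsa-miR-675-5p, the 5p arm of the H19 hairpin, whose miRNA restrains growth in mouse placenta, had a signal of 148 on HuH-7-M against 103 on HuH-7-P. Both spots lay above every No Probe spot of their array. The normalized difference was 0.41 (1.33-fold higher in HuH-7-M), and 5.59% of measured miRNAs had as high a value. hsa-miR-675-3p, from the other side of the same hairpin, had a signal of 32.9 on HuH-7-M against 23.8 on HuH-7-P, with a difference of 0.19. It passed the limit of the No Probe spots on the HuH-7-M array but not on the HuH-7-P array. As ratios of signals the arms were nearly alike, 1.43 for miR-675-5p and 1.39 for miR-675-3p, and on the log2 scale they stood 0.05 apart. On the Spike Control scale both turned negative, at -0.21 for miR-675-5p and -0.41 for miR-675-3p, but stayed above the median of all measured miRNAs (-0.58). With the background column they were 0.10 and -0.02. Among the miRNAs of the array with a RefSeq sequence, only miR-4466 (chr6:156779710-156779727, minus strand) shares a seed with any of the 7 matched members, that of miR-675-5p.
miR-4466: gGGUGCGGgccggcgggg
Its signal was 4973 on HuH-7-M against 3104 on HuH-7-P, a log2 difference of 0.68 before scaling and 0.01 after quantile normalization, so the seed relatives differed in how the scaling moved them.

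hsa-miR-296-5p, described in endothelial cells as a promoter of vessel growth, had a signal of 191 on HuH-7-M against 316 on HuH-7-P. The normalized difference was -0.58 (0.67 times the HuH-7-P level), and 3.45% of measured miRNAs had a difference as low or lower. hsa-miR-296-3p had a signal of 198 on HuH-7-M against 252 on HuH-7-P, with a difference of -0.26 and 8.60% of measured miRNAs as low or lower. All 4 of these spots lay above every No Probe spot of their array. Both arms were lower in HuH-7-M under each scaling tried, and on the Spike Control scale they reached -1.18 and -0.87, where the median of all measured miRNAs was -0.58. The exception was the scanner's background column, with which they were 0.15 and 0.02. That column read 157 on HuH-7-M against 352 on HuH-7-P at the miR-296-5p spot, close to the spot intensity of 375 itself on HuH-7-P, whereas the 8 adjacent spots had median signals of 7.20 on HuH-7-M against 9.17 on HuH-7-P.

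hsa-miR-298, whose hairpin is the neighbour of MIR296, lay on the other side of 0. Its signal was 26.8 on HuH-7-M against 15.7 on HuH-7-P, with a normalized difference of 0.24 and a log2 difference of 0.78 with the BLANK mean subtracted. Neither spot passed the No Probe limit, with 68 of the 85 No Probe spots dimmer than miR-298 on HuH-7-M against 15 on HuH-7-P. The difference was -0.36 on the Spike Control scale, still above both arms of miR-296 and above the median of all measured miRNAs (-0.58). With the background column it was 0.00074, below both arms of miR-296.

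The MEST arms gave no usable difference. hsa-miR-335-5p had signals of -4.52 on HuH-7-M against -2.76 on HuH-7-P, which is below the BLANK mean on both arrays. hsa-miR-335-3p had signals of 3.48 on HuH-7-M against 0.813 on HuH-7-P, and the bound after normalization was a level at least 1.02-fold higher in exosomes of HuH-7-M. No No Probe spot was dimmer than either arm on either array. Of the array's miRNAs with a RefSeq sequence, 27.2% of the 923 with under 50% G and C were measured, as against 84.2% of the 1102 with 50 to 70% and 97.8% of the 228 with 70% or more. Both miR-335 arms belong to the first class and the other 5 matched members to the middle class. The part of base composition in which members were measured was not tested.

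As a measure of technical spread, the difference between the arrays was taken from the 85 No Probe positions. With the same offset of 50 and no scaling, their log2 differences had an SD of 0.11 and ran from -0.34 to 0.36. On that scale miR-483-3p (0.66), miR-296-5p (-0.60) and miR-675-5p (0.37) lay outside this range, the last by a small margin. miR-483-5p (0.17), miR-675-3p (0.17), miR-298 (0.23) and miR-296-3p (-0.28) lay within it. With no offset the range widened to -1.65 to 1.16 and only miR-483-3p, at 1.39, was outside. The No Probe spots are dim, with mean signals of 22.3 on HuH-7-M against 20.1 on HuH-7-P. The offset therefore pulls their differences toward 0 more than those of the brighter miR-296-5p and miR-675-5p. A place outside the narrower range thus cannot set these members apart from technical spread. Without the offset the No Probe differences had an SD of 0.40, and single spots set the ends of their range. A place within that wider range thus cannot show that these brighter members differ by technical spread alone. The much brighter Spike Control means differed by 0.51 and 0.66 with the BLANK mean subtracted, higher on HuH-7-M. On that scale miR-675-5p stood at 0.52 and miR-296-5p at -0.72. The No Probe spots also lie on the same pair of arrays, so they leave out any spread between cultures, extractions or labelling reactions.

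**Figure D2:**
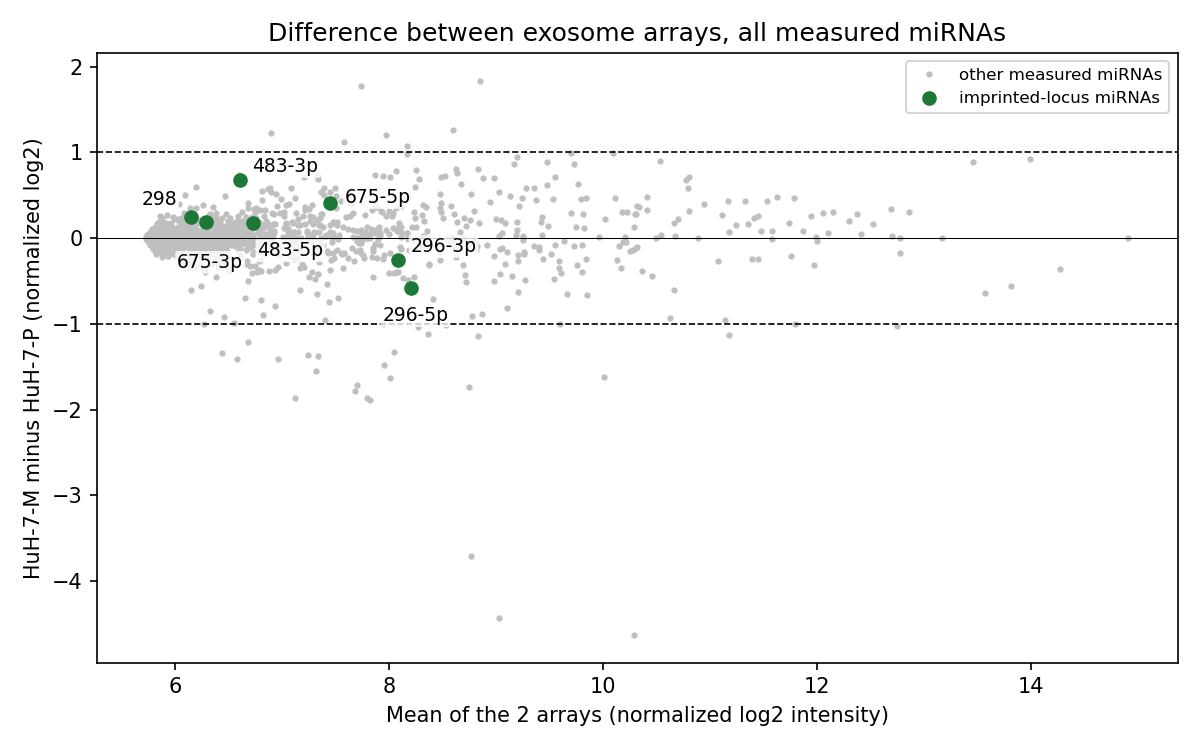
Difference between the arrays (normalized log2, HuH-7-P value subtracted from HuH-7-M value) against the mean of both arrays for the 1593 measured miRNAs, with the 7 measured members in green and dashed lines at 2-fold. All 7 lie between the dashed lines, with miR-483-3p (0.67) the highest of them and miR-296-5p (-0.58) the lowest.

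On the normalized scale, arms of 1 hairpin had the same sign in each of the 3 member hairpins with both arms measured. Over all 397 such hairpins of the array this held for 56.4% (224). After Spike Control scaling the arms of miR-483 differed in sign (-0.42 for 5p, 0.08 for 3p). That scaling shifts all miRNAs of an array alike and leaves the gap between arms as it was without scaling. Both arms lay above the median of all measured miRNAs on that scale (-0.58). With the scanner's background column those of miR-675 did (0.10 for 5p, -0.02 for 3p). The authors' deposited table, which carries no offset, held the 7 measured members with differences of 1.43 for miR-483-3p, 0.34 for miR-483-5p, 0.55 for miR-675-5p, 0.50 for miR-675-3p, -0.69 for miR-296-5p, -0.31 for miR-296-3p and 0.81 for miR-298. In this table miR-483-3p alone of the 7 passed 2-fold, on the higher side, and 0 of the 7 passed it on the lower side. Of the 1585 measured miRNAs matched to it by value, 3.91% passed 2-fold on the higher side and 4.16% on the lower side. For these 7 the values of the named row equalled those rebuilt from the scanner output, to a relative tolerance of 0.0001, so both sources name them alike. For miR-335-3p this could be compared on HuH-7-M alone, and for miR-335-5p on neither array.

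**Figure D3:**
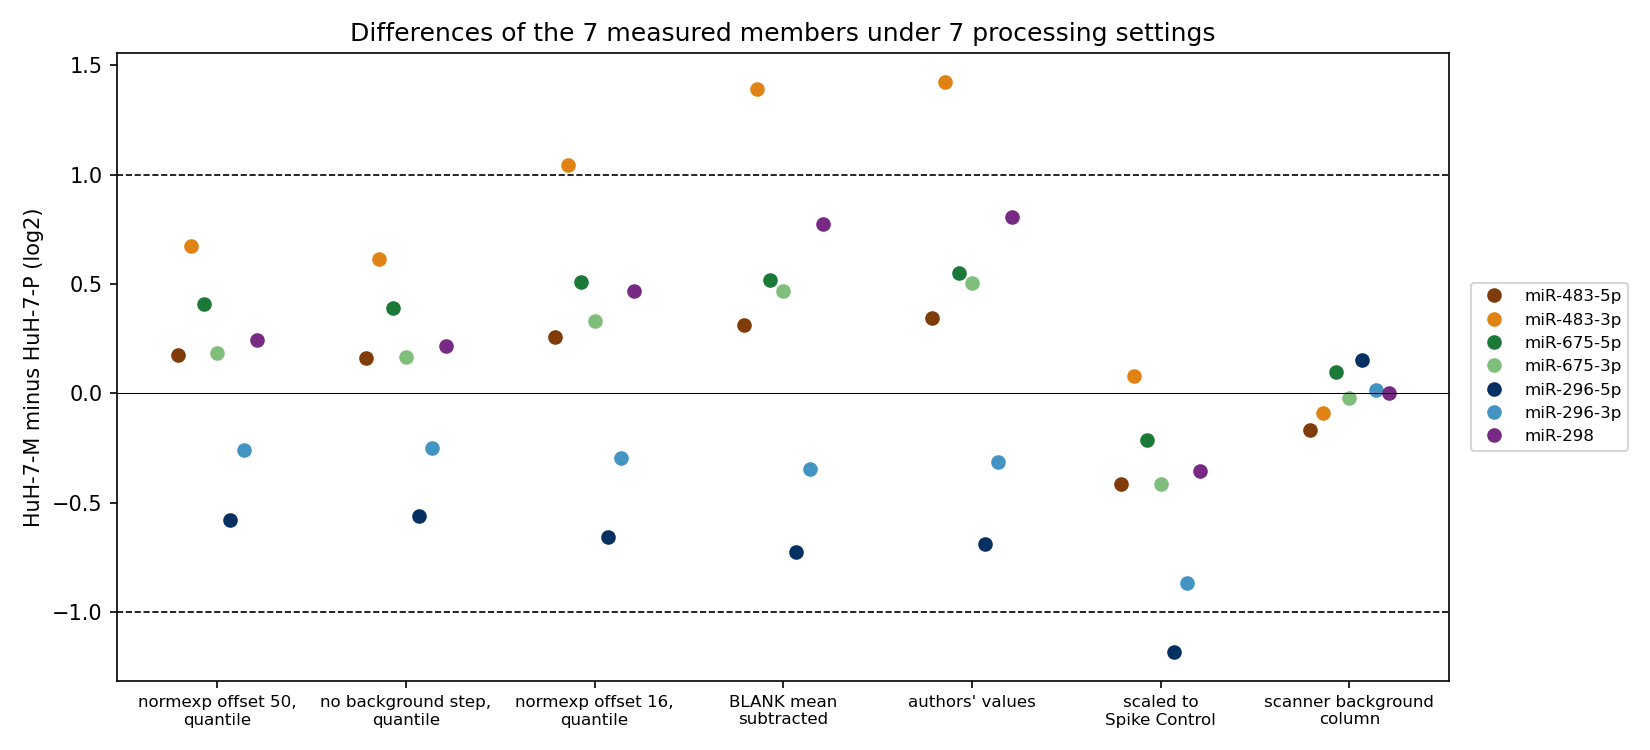
Differences (log2, HuH-7-P value subtracted from HuH-7-M value) of the 7 measured members under 7 processing settings, with dashed lines at 2-fold. miR-483-3p ranges from -0.09 with the scanner's background column to 1.43 in the authors' values, and miR-296-5p passes 2-fold lower only on the Spike Control scale (-1.18).

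For comparison with another imprinted locus, the 10 miRNAs of the antisense transcript of RTL1, a maternally expressed RNA of the chromosome 14 imprinted region, were counted as a list. Of these 4 were measured and none passed the No Probe limit on both arrays, beside 62.1% and 30.8% of all miRNA probes. None of the 4 differed by 2-fold on either scale, and their median difference was -0.02. Over all measured miRNAs 2.2% did on the normalized scale, and 3.33% (higher) and 4.46% (lower) with the BLANK mean subtracted. A list with 4 measured miRNAs is too short to set apart from these shares. Their summed signals were 56.3 on HuH-7-M against 56.6 on HuH-7-P. The brightest, miR-433-5p, had a signal of 27.7 on HuH-7-M against 28.5 on HuH-7-P.

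With 2 arrays a pattern is no more than a pair of values, and likeness was taken as the distance between these pairs on the normalized log2 scale. The measured miRNA nearest to miR-483-3p was miR-130a-3p, with signals of 74.8 on HuH-7-M against 25.6 on HuH-7-P. Nearest to miR-483-5p was miR-612, to miR-675-5p miR-5006-5p, to miR-296-5p miR-125a-3p and to miR-296-3p miR-4534, at distances of 0.03, 0.02, 0.08 and 0.02 in that order. None of the 5 nearest miRNAs was itself a member. With 7 members among the 1593 measured miRNAs, this says little on whether the members are alike.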

How the data were processed

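The deposited scanner output lists 3200 spots per array with a median intensity and a background intensity in the red channel, per the file headers, the median without background subtraction. RNA was labelled with Cy5, per the labels' protocols, whose extraction step speaks of cells although the source is named as exosome. The authors also deposited a table of scaled intensity values. Which software made either file is not stated in the labels or headers. Signals are spot medians minus the BLANK mean. Differences used normexp fitted on the BLANK spots (nec, limma 3.58.1, R 4.3.3, offset 50), quantile normalization over all 2565 miRNA probes and log2. These steps were run on simulated data, in which only brighter probes were changed, by more than any member's normalized difference. That simulation therefore does not bear on small changes or on changes of dim probes. BLANK and No Probe limits are the mean plus 2 SD after leaving out the top and bottom 5% of spots. A log2 size of 1 was the threshold. Samples were grouped by title. No p-value could be computed from single arrays, and batch and culture cannot be told apart. Named were all members, listed miRNAs, seed relatives and the nearest miRNA of each member above the No Probe limit. Members, lists and alternatives were chosen with earlier results of these data known. Sequences are from RefSeq (GRCh38.p14).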

Additional observations from a re-analysis of the deposited data

How the results depend on the processing

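No paired analysis was possible because each group has 1 array. No measured member reached 2-fold at the settings of the report, 1 did under 7 others, and 1 passed a 1.5-fold threshold. It was miR-483-3p, higher, with the BLANK mean subtracted (with quantile normalization or unscaled), an offset of 16, the authors' table (either naming), the No Probe mean subtracted, or the 1.5-fold threshold, and miR-296-5p, lower, after Spike Control scaling. Among all miRNAs the 35 calls became 124 with the BLANK mean subtracted (quantile or unscaled), 56 with an offset of 16, 91 with the background column, 75 after Spike Control scaling, 128 in the authors' table matched by value and 102 with its names as given, 92 with the No Probe mean subtracted and 100 at 1.5-fold. The share of calls that were higher was 20%, against 42.2% unscaled, 45.5% after scaling to the median, 51.1% to the 75th percentile, 34.9% to No Probe and 2.67% to Spike Control. The cause of these shifts was not tested. The 7 measured members stayed 7 under stricter BLANK limits and were 5 under the No Probe limit. Both No Probe settings were added after seeing the data. Low signal over background limits miR-298, miR-675-3p and miR-335. It also limits miR-483-3p on HuH-7-P, where the spot intensity of 87.4 lay just above the No Probe limit of 86.9.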
